A study of Saccharomyces cerevisiae with 14 samples.

Results

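The genes described here are 34 genes of sulfur assimilation and of methionine and cysteine metabolism in budding yeast (Saccharomyces cerevisiae). They were taken by name from a fixed list of symbols, which was chosen with earlier results of these data known. All 34 had a single probe set on the Affymetrix Yeast 2.0 array, and all 34 were among the 5415 genes tested, of 5449 genes with a named probe set. They fall into 8 roles: sulfate uptake (2 genes), sulfate activation and reduction to sulfide (8), the homoserine branch with sulfide incorporation (5), homocysteine methylation with its folates (3), the methyl cycle (3), transsulfuration and glutathione (5), methionine uptake (3) and regulators (5).

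The study compared 3 altered strains with a wild type grown for each, on 14 arrays of total RNA, each from a culture the labels call a biological replicate. The set1 deletion (2 arrays) carried set1::KanMx with his3-1, leu2-0, met15-0 and ura3-0, and lys2 is not listed in its genotype. The jhd2 deletion (3 arrays) carried jhd2::KanMX with his3∆1, le2∆0, lys2∆0 and ura3∆0. The JHD2 overexpression strain, written JHD2 OE below (2 arrays), is labelled as jhd2∆::KanMx together with JHD2 O/E, in a his3-1, leu2-0, lys2-0 and ura3-0 background. The sources used here name neither the promoter nor the vector that drives JHD2. The 3 wild types (2, 3 and 2 arrays, named here the SET1, jhd2 and OE wild types) share 1 label, with his3∆1, le2∆0, lys2∆0 and ura3∆0, and with TRP, MET15 and ADE marked as functional. Cultures were diluted to an optical density of 0.2 and grown at 30 °C to 0.6 to 0.7. The sources used here name no growth medium, and so no sulfur source.

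Yeast takes up sulfate, activates it with ATP and reduces it to sulfide, and the sulfhydrylase Met17 then joins the sulfide to O-acetylhomoserine to make homocysteine. Homocysteine is methylated to methionine or passed by transsulfuration to cysteine and glutathione. Methionine becomes S-adenosylmethionine, the methyl donor of most methyltransferases, among them Set1, which methylates H3K4, the mark that the demethylase Jhd2 removes. Most genes of the pathway are transcribed under the activator Met4, which works with Cbf1, Met28, Met31 and Met32 and is restrained by the ubiquitin ligase subunit Met30 when sulfur compounds are plentiful.

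The arrays carried the changes their labels name and some the labels do not. SET1 averaged 2.22 on the set1 deletion arrays, against 485 on those of its wild type, JHD2 averaged 2.29 on the jhd2 deletion arrays, against 132 in the jhd2 wild type, and JHD2 averaged 5722 on the JHD2 OE arrays, against 218 in the OE wild type. LYS2 averaged 1437 on the set1 deletion arrays and at most 10.5 in every other group. LEU2 averaged 6859 and 7085 in JHD2 OE and its wild type, against 23.5 or less in every other group, although the labels list leu2 as mutant in both. The 7 MATa marker genes had median signals of 1047 and 1141 in the set1 deletion and its wild type and of 30.9 to 52.9 in the other 4 groups, while the 5 MATalpha markers stood at 131 and 124 in the SET1 experiment and at 2822 to 3647 elsewhere. The labels give no mating type. Arrays also differed in RNA or labelling quality, read from 7 control genes as the mean log2 signal of their 3' probe sets over their 5' probe sets and called the 3'/5' ratio here. It lay between 1.33 and 1.50 on 4 arrays, both JHD2 OE arrays and replicate 3 of the jhd2 deletion and of its wild type, and between 0.541 and 0.878 on the other 10.

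**Figure D1:**
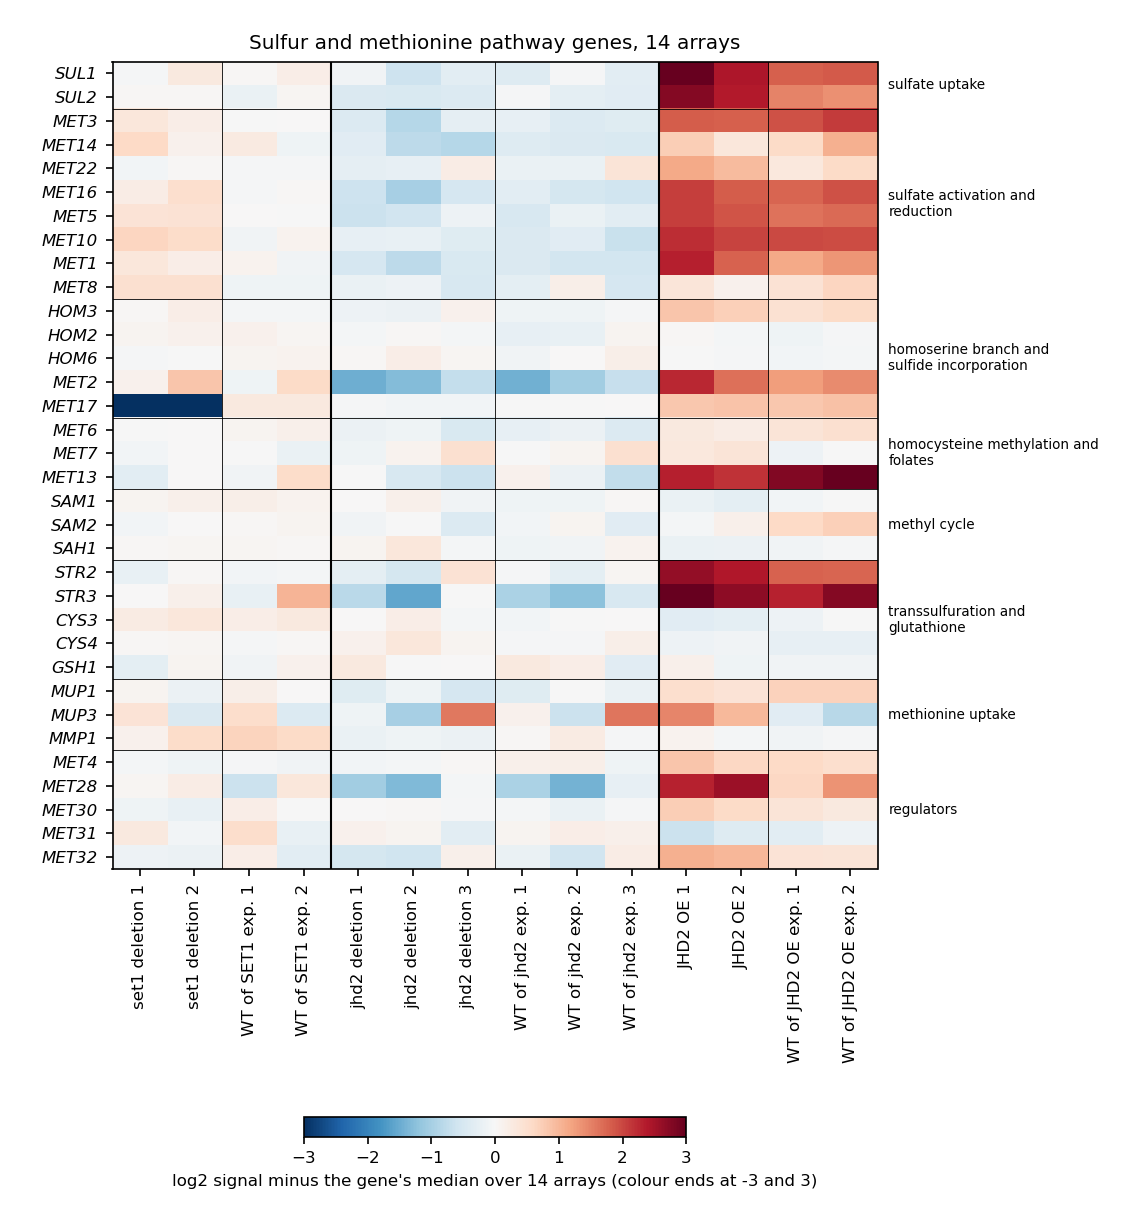
Signal of the 34 genes on all 14 arrays, shown as log2 signal minus each gene's median over the arrays, with genes in rows by role and arrays in columns by group. The 4 arrays of the overexpression experiment are high for 19 of the 34 genes, and MET17 is off the scale on the low side on both set1 deletion arrays.

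Values below are signals, that is linear array intensities, and changes are log2 differences with the standard error of a linear model fitted in limma to all 5415 genes. A gene is called changed at an adjusted p under 0.05. Signals of different genes depend on their probes and are not compared with each other. In the set1 deletion 1 of the 34 genes was called, where 0.259% of all tested genes were. It was the lower MET17, also named MET15, and the strain's label lists met15-0. In the jhd2 deletion 0 of 34 were called, by limma, where 0.0369% of all tested genes were, and 0 of the 34 had an unadjusted p under 0.05. In JHD2 OE 1 of 34 was called, the higher sulfate permease gene SUL2, where 0.517% of all tested genes were called. The median change of the 34 genes was 0.0042 in the set1 deletion, -0.061 in the jhd2 deletion and 0.12 in JHD2 OE, beside 0.021, -0.041 and 0.00053 over all tested genes. The spread between replicate arrays was of the usual size, with a median within-group SD of 0.174 on the log2 scale for the 34 genes and 0.198 for all tested genes.

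**Figure D2:**
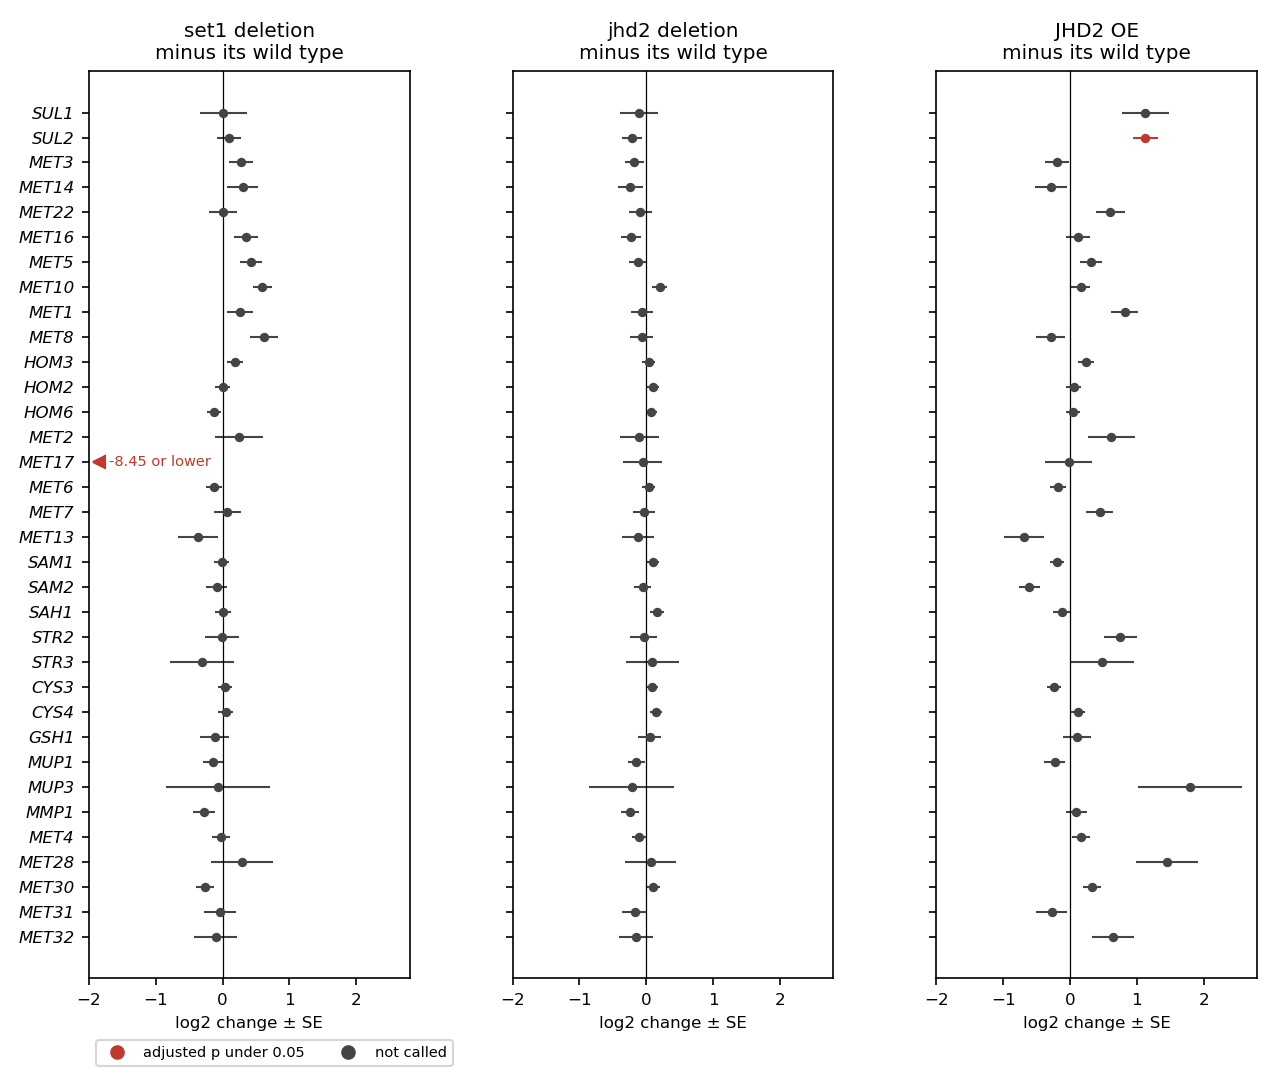
Log2 change ± SE of each gene in each altered strain against its own wild type, with called genes in red. MET17 in the set1 deletion lies off the axis, drawn as an arrow with its bound of -8.45 or lower, and SUL2 in JHD2 OE at 1.13 is the other called gene. Changes in the jhd2 deletion lie between -0.25 and 0.20.

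MET17 (YLR303W), which encodes the sulfhydrylase that makes homocysteine and is also called MET15, was the one gene of the pathway called lower in the set1 deletion. Its signal was 5.07 and 1.58 on the set1 deletion arrays, below the background of 10.2 and 9.88 set by the Schizosaccharomyces pombe probe sets of the same arrays, against 3528 and 3514 on the SET1 wild-type arrays. MET17 was therefore at least 350.1-fold lower (a log2 change of -8.45 or lower, n = 2 against 2, limma adjusted p = 7.79e-09). The strain's label lists met15-0 and its wild type's label lists a functional MET15. In the other 2 experiments MET17 gave 2808, 2721 and 2712 in the jhd2 deletion, against 2833, 2858 and 2865 in the jhd2 wild type. It gave 4985 and 5139.9 in JHD2 OE, against 5014 and 5266 in the OE wild type. The 4 arrays of the overexpression experiment were thus the highest for MET17 and the 2 set1 deletion arrays the lowest, and the other 8 arrays lay between 2712 and 3528. The change of MET17 in the set1 deletion differed from its change in the jhd2 deletion by -8.40 or lower (adjusted p = 1.74e-07) and from its change in JHD2 OE by -8.43 or lower (adjusted p = 4.92e-07), both bounds taken at background. MET17 was the only one of the 34 called in either test of a difference, where 0.0739% and 0.259% of all tested genes were called. The adjusted p-values belong to fitted log2 values of -10.28, -10.23 and -10.26, which use the signals below background. As the label already lists met15-0, these tests are no independent result on the pathway. Fitting the SET1 experiment's 4 arrays alone left MET17 uncalled (adjusted p = 0.132).

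With MET17 at background, the other 33 genes of the pathway in the set1 deletion gave log2 changes of -0.36 to 0.62, and 0 of them were called. Genes that differ between this deletion and its wild type include SET1, MET17 and LYS2, and their parts in any change cannot be told apart. Among the 34 genes, 8 were higher on both set1 deletion arrays than on both wild-type arrays, or 23.5%, where 19.4% of all tested genes were. Lower on both were 6 of the 34, or 17.6%, where 17.0% of all tested genes were. In sulfate activation and reduction, the steps that supply sulfide to Met17, all 8 genes had changes above 0, with a median of 0.33 and with MET22 lowest at 0.0045. Of these 8, 3 had an unadjusted p under 0.05, where 8.33% of all tested genes had. Higher without overlap were 6 of the 8, where 19.4% of all tested genes were. The median of the 8 lay between 0.31 and 0.41 without any 1 array.

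MET10 and MET5, for the alpha and beta subunits of sulfite reductase, are described first among these 8. MET10 (YFR030W) gave 761 and 713 on the set1 deletion arrays, against 454 and 526 on those of the SET1 wild type. Both deletion arrays were above both wild-type arrays, with a log2 change of 0.59 ± 0.14 (adjusted p = 0.158) that did not pass. It did pass with the 3'/5' ratio as a covariate (adjusted p = 0.0354) and with the replicate number as a block (adjusted p = 0.0327). MET10 gave 409, 417 and 381 in the jhd2 deletion, against 363, 385 and 307 in the jhd2 wild type, and it was higher in the deletion in each of the 3 same-numbered pairs (log2 differences of 0.17, 0.11 and 0.31). It gave 2279.8 and 2008 in JHD2 OE, against 1917 and 1913 in the OE wild type. All 4 arrays of that experiment stood above the other 10. MET5 gave 935 and 943 in the set1 deletion, against 712 and 691 in its wild type, a log2 change of 0.42 ± 0.17 (adjusted p = 0.474). MET5 gave 446, 473 and 636 in the jhd2 deletion, against 499.7, 610.4 and 563 in the jhd2 wild type, with overlapping groups. In JHD2 OE it gave 2945 and 2585, against 2171 and 2271 in the OE wild type, higher on both arrays but not called (0.31 ± 0.17, adjusted p = 0.319).

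MET8 and MET1 encode enzymes that make siroheme, the cofactor of sulfite reductase. MET8 had the highest change of all 34 genes in the set1 deletion, with 346 and 346 on its arrays, against 224 and 226 on the wild-type arrays. The groups lay apart, and the log2 change of 0.62 ± 0.21 did not pass over all genes (adjusted p = 0.364). MET8 gave 215, 221 and 177 in the jhd2 deletion, against 201, 277 and 175 in the jhd2 wild type, and 319 and 269 in JHD2 OE, against 334 and 384 in the OE wild type. It was thus on the lower side in JHD2 OE, at -0.29 ± 0.21. MET1 gave 369 and 333 in the set1 deletion, against 316 and 269.8 in the SET1 wild type, without overlap and not called (0.26 ± 0.20, adjusted p = 0.834). It gave 206, 170.2 and 212 in the jhd2 deletion, against 215, 200.1 and 198 in the jhd2 wild type. The widest change of MET1 was in JHD2 OE, with 1482 and 989.9, against 641 and 736 in the OE wild type. That log2 change of 0.82 ± 0.20 did not pass (adjusted p = 0.0851).

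MET16, for the reductase that turns activated sulfate into sulfite, gave 447 and 544 in the set1 deletion, against 375 and 398 in its wild type (0.35 ± 0.18, adjusted p = 0.672). MET16 gave 250.2, 195 and 273 in the jhd2 deletion, against 309, 269 and 255 in the jhd2 wild type, on the lower side and not called (-0.22 ± 0.15, adjusted p = 0.9997). In JHD2 OE it gave 1618 and 1357, against 1292 and 1441 in the OE wild type, with overlapping groups. The 4 MET16 arrays of the overexpression experiment lay above the other 10, and the set1 deletion arrays above those of their wild type. MET22, for the phosphatase that clears the adenosine bisphosphate left by sulfate reduction, gave 1466 and 1597 in the set1 deletion, against 1525 and 1526 in its wild type. It gave 1304, 1313 and 1821 in the jhd2 deletion, against 1358, 1356 and 2032 in the jhd2 wild type, the third array of each group being the high one. In JHD2 OE it gave 3428 and 3020.1, against 1932 and 2311 in the OE wild type. That difference was not called (0.61 ± 0.21, adjusted p = 0.17), and it stood at 0.23 with the 3'/5' ratio as a covariate. The remaining 2 genes of the role, MET3 for ATP sulfurylase and MET14 for the kinase that follows it, ranged from 185 to 1426 and from 547 to 2073. Their changes in the set1 deletion were 0.27 ± 0.18 and 0.30 ± 0.23.

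Sulfate uptake was the role with the clearest change in JHD2 OE, where SUL1 and SUL2, paralogous genes for the high-affinity sulfate permeases, each had a log2 change of 1.13. SUL2 (YLR092W) gave 965 and 745 on the JHD2 OE arrays, against 407 and 371 on the OE wild-type arrays, and rose 2.18-fold (1.13 ± 0.19, adjusted p = 0.0316). SUL1 gave 273 and 132 on the JHD2 OE arrays, against 86.0 and 88.0 on the OE wild-type arrays, and was not called (1.13 ± 0.35, adjusted p = 0.139). All JHD2 OE arrays lay above all OE wild-type arrays for both genes. In the set1 deletion SUL2 gave 147 and 147, against 125 and 151 in its wild type, and SUL1 gave 24.0 and 30.6, against 25.4 and 28.4 in its wild type. In the jhd2 deletion SUL2 gave 106, 105 and 108, against 142, 117 and 113 in the jhd2 wild type, lower on every deletion array and in every pair but not called (-0.21 ± 0.15, adjusted p = 0.9997). SUL1 gave 23.0, 16.0 and 19.9 there, against 19.0, 24.2 and 20.0 in the jhd2 wild type, with groups that overlap.

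The call of SUL2 in JHD2 OE depended on single arrays. It was lost without set1 deletion replicate 1 or 2, without jhd2 wild-type replicate 2, and without any 1 of the 4 arrays of its own experiment, with log2 changes of 0.94 to 1.31 and adjusted p of 0.0513 to 0.2 in those 7 fits. The JHD2 OE arrays had 3'/5' ratios of 1.44 and 1.43 on the log2 scale, against 0.878 and 0.664 in the OE wild type. With that ratio as a covariate SUL2 stood at 1.20 and was called (adjusted p = 0.0313).

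**Figure D3:**
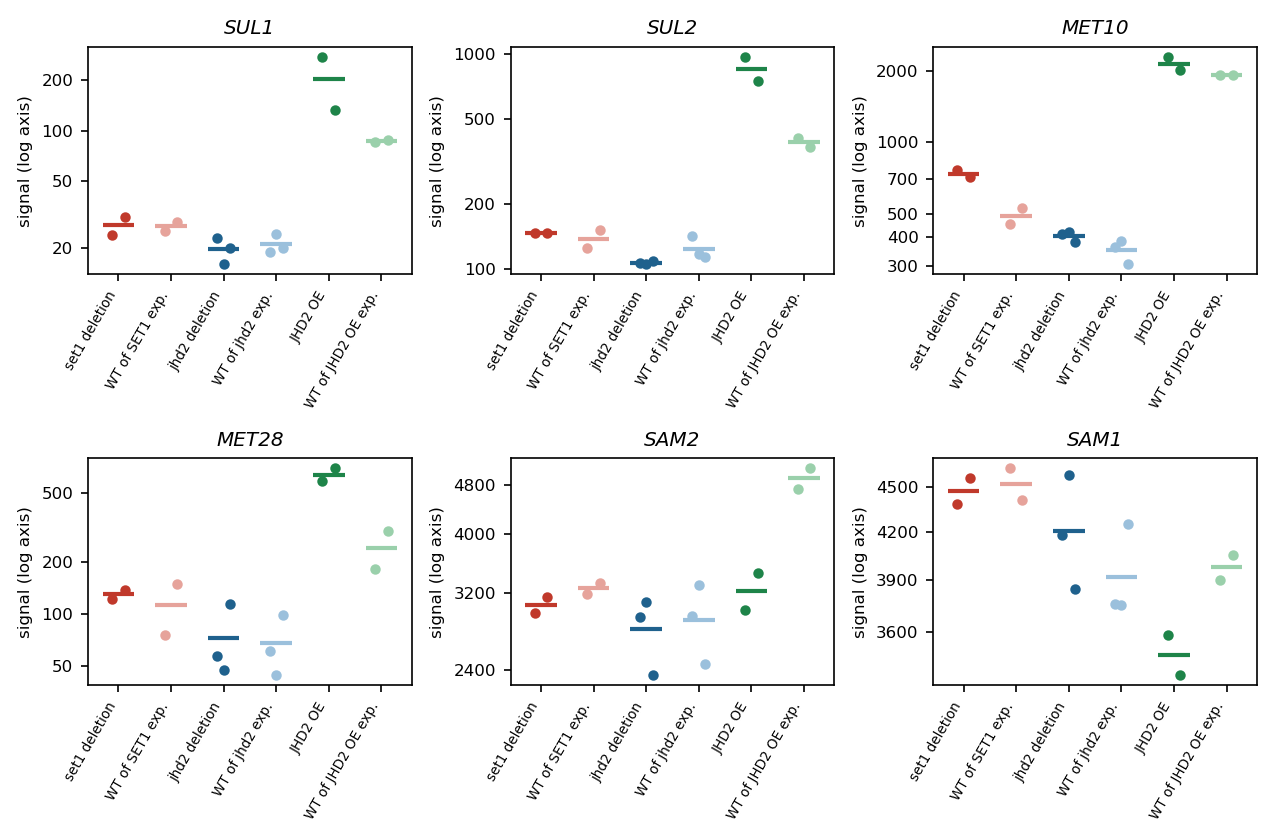
Signals of SUL1, SUL2, MET10, MET28, SAM2 and SAM1 on every array (points) with the group mean (line), on log axes, for each altered strain and, to its right, its wild type. Both JHD2 OE arrays lie above both OE wild-type arrays for SUL1, SUL2 and MET28, and below them for SAM2 and SAM1.

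Over the whole pathway, 12 of the 34 genes had an unadjusted p under 0.05 in JHD2 OE, where 19.4% of all tested genes did. Of these, 9 were higher and 3 lower, where 8.27% and 11.1% of all tested genes were. The set1 deletion had 4 of 34, where 8.33% of all tested genes had such a p, and the jhd2 deletion 0 of 34, where 1.83% had. On both JHD2 OE arrays 17 of the 34 genes, or 50.0%, were above both wild-type arrays, where 31.1% of all tested genes were. Below both were 10 of the 34, or 29.4%, where 31.9% of all tested genes were. Fitted alone in limma, the 4 arrays of the overexpression experiment called 10 of the 34, namely SUL1, SUL2, MET22, MET1, MET7, STR2, MUP3 and MET28 as higher and MET13 and SAM2 as lower, where that fit called 17.6% of all tested genes. Without both replicate 3 arrays of the jhd2 experiment 8 were called, the same genes less SUL1 and MET13, where 12.9% of all tested genes were. The 3'/5' ratio was 1.44 and 1.43 in JHD2 OE and 0.878 and 0.664 in the OE wild type. Strain and ratio therefore cannot be told apart in these calls. Changes with the ratio as a covariate are given with SUL2, MET22, MET28, SAM2, MUP3 and MET7.

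Among the regulators MET28, for the bZIP cofactor of Met4, gave 587 and 698 in JHD2 OE, against 181 and 302 in the OE wild type. The groups lay apart, and the log2 change of 1.45 ± 0.47 was not called (adjusted p = 0.15) and stood at 0.83 with the 3'/5' ratio as a covariate. MET28 gave 123 and 137 in the set1 deletion, against 75.8 and 148 in the SET1 wild type, and 57.4, 47.2 and 114 in the jhd2 deletion, against 61.2, 44.3 and 98.9 in the jhd2 wild type. Groups overlapped in both of those. MET30, for the F-box protein that restrains Met4, gave 683 and 605 in JHD2 OE, against 530.2 and 497 in the OE wild type, higher on both arrays and not called (0.32 ± 0.14, adjusted p = 0.221). In the set1 deletion MET30 was on the other side, with 374 and 349, against 467 and 405 in the SET1 wild type (-0.27 ± 0.14, adjusted p = 0.658). The jhd2 deletion gave 411, 421 and 398 for MET30, against 395, 358 and 396 in the jhd2 wild type, and was higher in each of the 3 pairs. The difference between the MET30 changes in the set1 deletion and in JHD2 OE was -0.59 ± 0.19 and did not pass (adjusted p = 0.262).

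MET31 and MET32 are paralogs that encode zinc-finger proteins which bring Met4 to DNA, and they lay on opposite sides in JHD2 OE. MET32 gave 149 and 142 there, against 94.1 and 92.5 in the OE wild type, and MET31 gave 274 and 326, against 342 and 383 in the OE wild type. The log2 changes of 0.64 ± 0.32 for MET32 and -0.28 ± 0.24 for MET31 did not pass (adjusted p = 0.286 and 0.543), and the difference between the paralogs was not tested. In the set1 deletion MET32 gave 64.2 and 62.2, against 81.9 and 56.5 in the SET1 wild type, and MET31 gave 522 and 407, against 614 and 364. In the jhd2 deletion MET32 gave 48.9, 46.4 and 78.1, against 61.5, 47.9 and 82.8 in the jhd2 wild type, and MET31 gave 465, 454 and 345, against 449, 492 and 477. MET4, the activator itself, ranged from 552 to 681 on the 10 arrays of the SET1 and jhd2 experiments and from 864 to 1068 on the 4 of the overexpression experiment, and its change was 0.17 ± 0.14 in JHD2 OE.

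In the methyl cycle, the paralogs SAM1 and SAM2 encode the enzymes that make S-adenosylmethionine. SAM2 gave 3004 and 3451 in JHD2 OE, against 4736 and 5112 in the OE wild type, a log2 change of -0.61 ± 0.16 (adjusted p = 0.0992), and SAM1 gave 3582 and 3371, against 3901 and 4056 (-0.20 ± 0.11, adjusted p = 0.338). Neither was called, although both JHD2 OE arrays lay below both wild-type arrays for each. With the 3'/5' ratio as a covariate SAM2 stood at -0.35 (adjusted p = 0.257). In the set1 deletion SAM2 gave 2969.6 and 3161, against 3196 and 3323 in the SET1 wild type, and SAM1 gave 4385 and 4564, against 4632 and 4415. SAM2 gave 2931, 3099.5 and 2355 in the jhd2 deletion, against 2938, 3303 and 2457 in the jhd2 wild type, and SAM1 gave 4182, 4585 and 3848, against 3759, 3754 and 4249. The log2 changes of these genes for the methyl donor of Set1 were -0.016 ± 0.11 for SAM1 and -0.089 ± 0.16 for SAM2 in the set1 deletion, both smaller than their standard error. SAH1, for the hydrolase that removes the S-adenosylhomocysteine made by methyltransferases, gave 4619 and 4707 in the set1 deletion, against 4665 and 4613 in the SET1 wild type. It gave 4739.6, 5658 and 4339 in the jhd2 deletion, against 4124, 4169 and 4851 in the jhd2 wild type (0.16 ± 0.10, adjusted p = 0.9997). In JHD2 OE it gave 3910.5 and 3997, against 4213 and 4397 in the OE wild type, lower on both arrays and not called.

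Transsulfuration links homocysteine and cysteine in both directions. STR2, for cystathionine gamma-synthase on the branch from cysteine, gave 2883 and 2433 in JHD2 OE, against 1582 and 1559.7 in the OE wild type (0.75 ± 0.25, adjusted p = 0.157), and 399 and 478 in the set1 deletion, against 437 and 441 in the SET1 wild type. It gave 377, 319.6 and 621 in the jhd2 deletion, against 448, 376 and 481 in the jhd2 wild type. STR3, for the cystathionine beta-lyase of the same branch, gave 1744 and 1113 in JHD2 OE, against 859.7 and 1165 in the OE wild type. Those groups overlapped for STR3 and lay apart for STR2. STR3 gave 173 and 191 in the set1 deletion, against 147 and 347 in the SET1 wild type, and 97.7, 58.5 and 172 in the jhd2 deletion, against 88.6, 73.6 and 124 in the jhd2 wild type. CYS4, for cystathionine beta-synthase on the branch towards cysteine, gave 5245 and 5305 in the set1 deletion, against 4992 and 5240.4 in the SET1 wild type. CYS4 gave 5565, 6490.2 and 5389 in the jhd2 deletion, against 4988, 4975 and 5738 in the jhd2 wild type (0.15 ± 0.089, adjusted p = 0.9997). In JHD2 OE it gave 4610.3 and 4725, against 4299.6 and 4334 in the OE wild type. All 4 overexpression-experiment arrays of CYS4 were below the other 10. That held for 1 of the 34 genes, or 2.94%, where it held for 7.15% of all tested genes. CYS3, for cystathionine gamma-lyase, ranged from 3063 to 4866 over all arrays, and GSH1, for the first enzyme of glutathione synthesis, from 1213 to 1888.

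The 3 methionine uptake genes all had changes below 0 in the set1 and jhd2 deletions, and none was called. Of all 5415 tested genes, 2447 and 3401 had changes below 0 there. In JHD2 OE 2 of the 3 were above 0 and 1 was below. MUP1, for the high-affinity methionine permease, gave 1581 and 1468 in JHD2 OE, against 1789 and 1785 in the OE wild type, and 1171 and 982 in the set1 deletion, against 1248 and 1116 in the SET1 wild type. It gave 865, 1016 and 786 in the jhd2 deletion, against 870.3, 1109.9 and 971 in the jhd2 wild type. MUP3, for a low-affinity permease, gave 1099.9 and 783 in JHD2 OE, against 316 and 224 in the OE wild type, the highest change of the 34 genes in that strain (1.80 ± 0.78) and not called (adjusted p = 0.233). MUP3 gave 362, 199 and 1199 in the jhd2 deletion, against 439, 253 and 1214 in the jhd2 wild type, with replicate 3 the high array of both groups. In the set1 deletion it gave 529 and 295, against 579 and 299 in the SET1 wild type. MMP1, for the S-methylmethionine permease, gave 329, 350.2 and 336 in the jhd2 deletion, against 388, 449 and 372 in the jhd2 wild type. All 3 deletion arrays lay below all 3 wild-type arrays, and this smallest p of the 34 genes in the jhd2 deletion gave -0.25 ± 0.13 and an adjusted p of 0.9997. MMP1 gave 415 and 552 in the set1 deletion, against 599 and 562 in the SET1 wild type, and 411 and 362 in JHD2 OE, against 354 and 368 in the OE wild type.

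MUP3 and MET7, for the enzyme that adds glutamates to folates, were high on the arrays with a high 3'/5' ratio. On the 4 arrays with the high ratio MUP3 ranged from 783 to 1214 and on the other 10 from 199 to 579, and MET7 ranged from 1547 to 1734 and from 1070.3 to 1330.0. They were the 2 of 34 genes, or 5.88%, for which all 4 such arrays lay above the other 10, where 4.21% of all tested genes did so. With the ratio as a covariate the change in JHD2 OE was 0.24 for MUP3 and 0.095 for MET7. The part of RNA or labelling quality in their changes was not tested further.

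**Figure D4:**
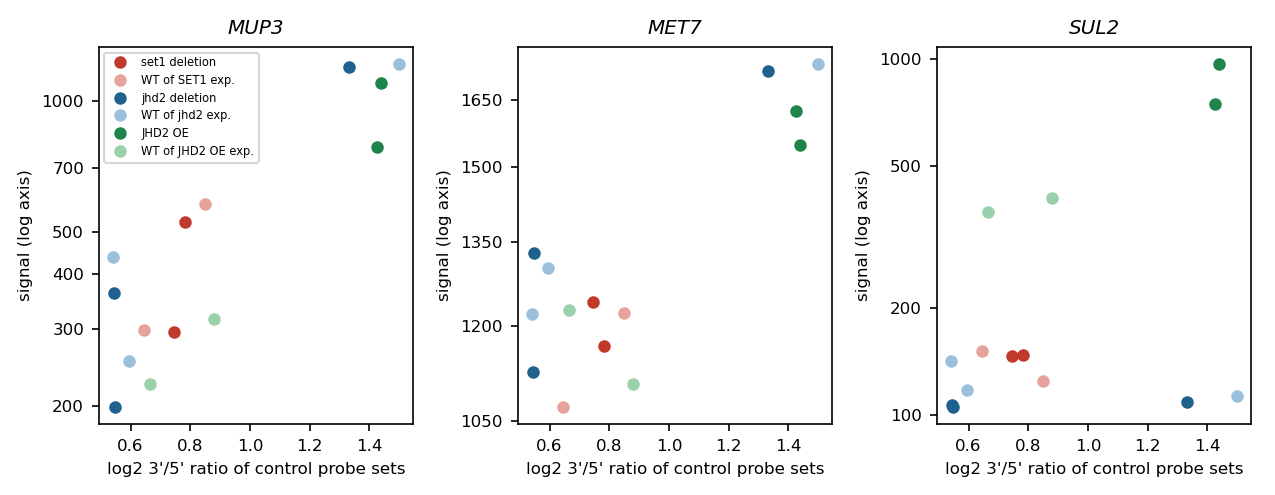
Signal (log axis) of MUP3, MET7 and SUL2 on each of the 14 arrays against the 3'/5' ratio of that array on the log2 scale. The 4 arrays with a ratio above 1 are the highest for MUP3 and MET7. SUL2 is high on the 4 overexpression-experiment arrays, and among them highest on the JHD2 OE arrays, which have the high ratio.

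In the jhd2 deletion all 34 changes lay between -0.25 and 0.20, with MMP1 and MET10 at the ends. Same-numbered arrays varied together in this experiment. Both replicate 3 arrays had the high 3'/5' ratio, 1.33 and 1.50, and its part in that shared variation was not tested. Within the 3 pairs 2 genes, MET10 and MET30, were higher in every pair and 9 were lower in every pair, among them SUL2, MMP1, MET22 and SAM2. Of all tested genes 6.19% were higher and 20.6% lower in every pair. With the pairs as a block the count of called genes was 0 of 34 as well, where 0.0739% of all tested genes were called. The difference between the changes in JHD2 OE and in the jhd2 deletion was called for 0 of 34 genes by limma, where 0.0923% of all tested genes were called, and 8 of the 34 had an unadjusted p under 0.05, where 11.7% of all tested genes had. SUL2 had the smallest p of these, with a difference of 1.34 ± 0.24 (adjusted p = 0.0912). SUL1 gave 1.24 ± 0.45 (adjusted p = 0.38). With the replicate number as a block, a pairing in the jhd2 experiment but not in the overexpression experiment, 8 of the 34 differences were called, where 10.0% of all tested genes were. These were SUL2, MET22, MET1, MET7, STR2, MUP3 and MET28, with differences above 0, and SAM2, with one below 0, at adjusted p of 0.000127 to 0.0443. The 3'/5' ratio differs between JHD2 OE and its wild type in these tests as well.

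The most calls in the pathway came between the wild types of the experiments. In the OE wild type 20 of the 34 genes, or 58.8%, were called higher than in the jhd2 wild type, where 10.7% of all tested genes were called higher. Called lower were 0 of 34, where 5.5% of all tested genes were. The median difference was 0.73 for the 34 genes and 0.069 for all tested genes. On the 4 arrays of the overexpression experiment together, 19 of 34 genes, or 55.9%, were above all 10 other arrays, where 9.86% of all tested genes were. The strain, the growth of the cultures and the processing of the arrays may each differ between experiments, and they cannot be told apart. The LEU2 and mating-type signals given above moved with some of these groups, and their part was not tested.

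Sulfate uptake and reduction were the steps that differed in nearly every gene. SUL1 was higher in the OE wild type than in the jhd2 wild type by 2.05 ± 0.32 and SUL2 by 1.65 ± 0.17 on the log2 scale (adjusted p = 0.00141 and 6.08e-05). In activation and reduction 7 of 8 genes were called higher, with a median difference of 1.87. MET10 differed by 2.45 ± 0.13 (adjusted p = 6.36e-07), MET3 by 2.34 ± 0.16, MET16 by 2.30 ± 0.17 and MET5 by 2.00 ± 0.15. MET1 at 1.75 ± 0.18, MET14 at 1.25 ± 0.21 and MET8 at 0.75 ± 0.19 were also called, and MET22 at 0.44 ± 0.19 was not (adjusted p = 0.13).

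Downstream of sulfide the genes divided. STR3 showed the widest difference of all 34, 3.43 ± 0.44 (adjusted p = 0.000359), with signals of 859.7 and 1165 in the OE wild type, against 88.6, 73.6 and 124 in the jhd2 wild type. STR2 differed by 1.86 ± 0.23, whereas CYS3, CYS4 and GSH1, for the reactions towards cysteine and glutathione, gave -0.050 ± 0.10, -0.27 ± 0.10 and -0.14 ± 0.19 and were not called. MET13, for the main methylenetetrahydrofolate reductase that supplies the methyl group of methionine, differed by 3.19 ± 0.27 (adjusted p = 1.60e-05). It ranged from 2150.2 to 2709 in the OE wild type, against 189.6 to 346 in the jhd2 wild type. MET6, for methionine synthase, differed by 0.72 ± 0.11 and was called, while MET7 gave -0.27 ± 0.18 and was not. In the homoserine branch MET2, for the acetyltransferase that makes the acceptor of sulfide, was called at 2.40 ± 0.32 and HOM3, for aspartate kinase, at 0.62 ± 0.11. HOM2 and HOM6, for the following dehydrogenases, gave 0.052 ± 0.10 and -0.089 ± 0.095.

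MET17 differed between these wild types by 0.85 ± 0.32 and was not called (adjusted p = 0.0908), although its signals were 5014 and 5266 in the OE wild type, against 2833, 2858 and 2865 in the jhd2 wild type. Its estimated spread includes the 2 set1 deletion arrays, both below background. Without set1 deletion replicate 1 or 2 MET17 was called at the same difference (adjusted p = 0.000152 and 0.000136). Of the paralogs that make S-adenosylmethionine SAM2 was called, at 0.77 ± 0.14, while SAM1 gave 0.023 ± 0.10. Of the permease genes MUP1 was called, at 0.87 ± 0.14, while MUP3 gave -0.95 ± 0.71 and MMP1 -0.15 ± 0.15. Among the regulators MET28 (1.86 ± 0.43), MET4 (0.49 ± 0.12) and MET30 (0.43 ± 0.12) were called higher, whereas MET31 gave -0.38 ± 0.22 and MET32 0.58 ± 0.29. After quantile normalization the calls of MET28, MET30 and MET8 were lost, while MET17 was called. Median centring ended the call of MET30. Without OE wild-type replicate 2 the calls of MET28, MET4, MET30 and MET8 were lost, and without OE wild-type replicate 1 those of MET4, MET30 and MET8. MET8 and MET4 also lost theirs without jhd2 wild-type replicate 3, MET8 and MET30 without jhd2 wild-type replicate 1, and MET30 without jhd2 wild-type replicate 2, jhd2 deletion replicate 1 or either set1 deletion array. Over the settings that ended these calls the adjusted p was 0.0604 to 0.114 for MET28, 0.0502 to 0.171 for MET4, 0.0533 to 0.236 for MET30 and 0.0583 to 0.142 for MET8.

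**Figure D5:**
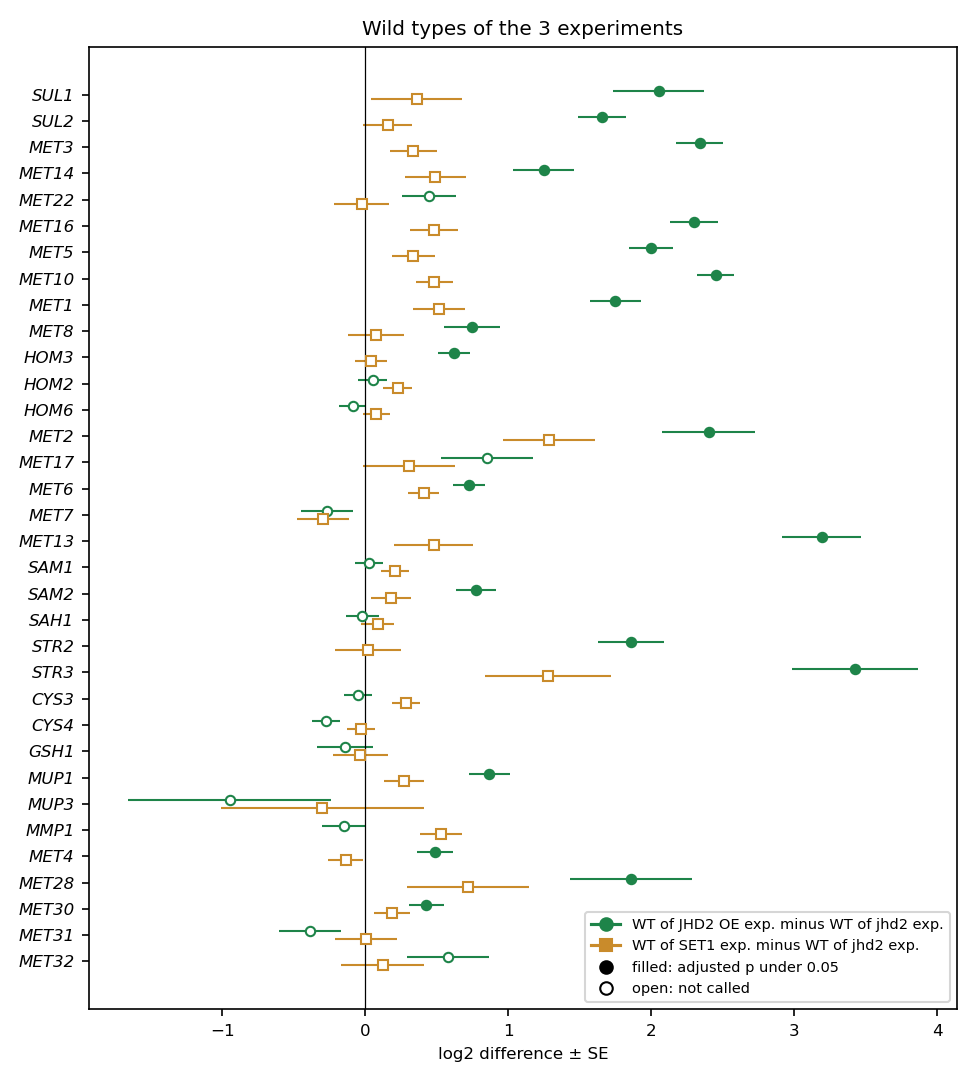
Log2 difference ± SE of each gene between the OE wild type and the jhd2 wild type, and between the SET1 wild type and the jhd2 wild type. In the first comparison 20 genes are called higher, from 0.43 for MET30 to 3.43 for STR3, and in the second no gene is called.

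The SET1 wild type lay between the other wild types for much of the pathway. Against the OE wild type 15 of 34 genes were called, or 44.1%, where 8.11% of all tested genes were. Of these, 14 were lower in the SET1 wild type, where 5.24% of all tested genes were called lower. MET10 differed by -1.97 ± 0.14 (adjusted p = 3.11e-06) and MET13 by -2.71 ± 0.30, with MET3, MET16, MET5, MET1, SUL1, SUL2, STR2, STR3, HOM3, SAM2, MUP1 and MET4 also lower. MMP1 was the 1 gene called higher in the SET1 wild type (0.68 ± 0.16, adjusted p = 0.0271). Against the jhd2 wild type 0 of 34 genes were called by limma, where 0.388% of all tested genes were, and 11 had an unadjusted p under 0.05, all of them higher, where 13.5% of all tested genes had such a p. All SET1 wild-type arrays lay above all jhd2 wild-type arrays for 16 of 34 genes, or 47.1%, where 12.9% of all tested genes did so. The reverse was true for 0 of 34 genes and for 13.1% of all tested genes. MET2 at 1.28 ± 0.32 and STR3 at 1.28 ± 0.44 had the widest of these differences, with MET10 at 0.48 ± 0.13 and MMP1 at 0.53 ± 0.15. The 3 comparisons share arrays, each wild type entering 2 of them. The count against the OE wild type was 9 without SET1 wild-type replicate 1 and 8 without either OE wild-type array. Each of those 3 arrays, when left out, ended the calls of SUL1, HOM3, SAM2, STR3, MUP1 and MMP1, with adjusted p of up to 0.219, the value for MUP1. MET4 lost its call without either OE wild-type array or SET1 wild-type replicate 2, and SAM2 and MUP1 lost theirs also without SET1 wild-type replicate 2, either JHD2 OE array or jhd2 deletion replicate 1. The call of SAM2 was lost as well without jhd2 wild-type replicate 1 or either set1 deletion array. Median centring ended the calls of HOM3, SAM2 and MUP1, while CYS3 gained one. SAM2 also lost its call with no intensity trend, and MUP1 and MMP1 lost theirs with array weights.

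The order of the groups was the same for SUL1, SUL2, MET16, MET5, MET1 and MET2, with JHD2 OE highest and then the OE wild type, the set1 deletion, the SET1 wild type, the jhd2 wild type and the jhd2 deletion. Between JHD2 OE and its wild type the arrays did not overlap for SUL1, SUL2, MET5, MET1 and MET2 and overlapped for MET16, and SUL2 alone of these 6 was called, with the losses of that call given above. For these 6 genes neither deletion was called against its own wild type, and the jhd2 deletion and its wild type overlapped for all of them but SUL2. The 6 were picked by their order, and how many of all tested genes share it was not counted. HOM6, HOM2, SAM1 and SAH1 varied least over the 14 arrays, with log2 ranges of 0.32, 0.37, 0.46 and 0.53 between their highest and lowest array. STR3 and SUL1 varied most after MET17, with log2 ranges of 4.90 and 4.09, and that of MET17 was at least 9.06, with the arrays below background set to it.

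A further 53 genes of related pathways were listed, among them transporters, the ubiquitin ligase of Met30, the methionine salvage enzymes and the glutathione and serine branches. Of these 51 were tested, and SOA1 and YLL058W had no probe set named here. None of the 51 was called by limma in any of the 3 altered strains, while 3, 1 and 10 had an unadjusted p under 0.05 in the set1 deletion, the jhd2 deletion and JHD2 OE, beside the shares of all tested genes given above. The smallest p belonged to PDC6, for a pyruvate decarboxylase isoform, in the set1 deletion (1.18 ± 0.37, adjusted p = 0.313), to SEO1, for a putative permease, in the jhd2 deletion (0.73 ± 0.24, adjusted p = 0.9997) and to SHM2, for the cytosolic serine hydroxymethyltransferase, in JHD2 OE (-0.53 ± 0.13, adjusted p = 0.094). CBF1, the DNA-binding partner of Met4, gave -0.51 ± 0.23 in the set1 deletion (adjusted p = 0.585).

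Between the OE wild type and the jhd2 wild type 16 of the 51 related genes were called, where 16.3% of all tested genes were. Of the 16, 11 were higher and 5 lower, where 10.7% and 5.5% of all tested genes were. The S-adenosylmethionine permease gene SAM3 was higher by 1.60 ± 0.11 (adjusted p = 3.89e-06), with 1788 and 1837 in the OE wild type, against 572, 647 and 581 in the jhd2 wild type. TMT1, for a methyltransferase of aconitate, was higher by 2.95 ± 0.27, and the amino acid permease gene AGP1 by 2.30 ± 0.25. The cysteine transporter gene YCT1 was higher by 1.46 ± 0.24. Lower in the OE wild type were the methionine salvage genes UTR4 (-0.53 ± 0.13), MDE1 (-0.50 ± 0.14) and MRI1 (-0.64 ± 0.19), the cysteine-degrading lyase gene IRC7 (-1.07 ± 0.25) and GSH2 (-0.39 ± 0.094), for the second enzyme of glutathione synthesis.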

How the data were processed

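Expression was measured on Affymetrix Yeast 2.0 arrays, and the authors deposited linear intensities, 1 for each probe set, computed with MAS5 per the submitters' processing notes. The scaling target is not stated there. Arrays were grouped by their labels, 2 or 3 per group, and this number limits the precision.

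Of 10928 probe sets 5498 matched 1 S. cerevisiae gene each, and the brightest was kept for 47 genes that had several. Genes whose mean log2 value did not exceed the 95th percentile of the means of 1746 S. pombe probe sets were left out (34 of 5449). Each array's own 95th percentile of those probe sets, 7.28 to 16.7, served as background, and "at least" folds use it in place of lower values. Values under 1 were set to 1 and put on the log2 scale. A limma model (version 3.58.1, under R 4.3.3) estimated the 6 group means from all 14 arrays together, moderating variances along a trend with intensity. Tests are two-sided, with Benjamini-Hochberg adjustment over 5415 genes. The fit was tested on simulated data.

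The 34 genes, the related-gene list and the tests were chosen with earlier results of these data known. Signals on every array are given for MET17, for paralogs and similar pairs, and for genes called or among the 5 smallest p in a strain comparison or a difference between strains. Same-numbered arrays were checked for pairing by correlating deviations from group means across genes, which gave 0.64, 0.62 and 0.69 for the 3 jhd2 pairs, 0.73 for SET1 and -0.14 for overexpression, genes not being independent replicates. The numbers were taken as pairs in the jhd2 experiment only, although the SET1 value was higher than any jhd2 value. No term for pairs is in the model, in either experiment. Alternatives were other normalizations, filters, variance models, a replicate block, a covariate and leaving out arrays. Promoter sequences were not used here.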

Additional observations from a re-analysis of the deposited data

Results flagged for a closer look

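MET17 was flagged because its change differed between altered strains. Its change in the set1 deletion minus that in the jhd2 deletion was -8.40 or lower on the log2 scale, and its change in the set1 deletion minus that in JHD2 OE was -8.43 or lower. Both set1 deletion arrays lay below background for MET17, so that these are bounds taken at background, and the label of that strain lists met15-0.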

How the results depend on the processing

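Counts below are of the 34 genes called, in the order of JHD2 OE, then the difference between JHD2 OE and jhd2 deletion changes, unless another comparison is named. They were 1 and 0 as reported, 3 and 1 after quantile normalization, 1 for the difference with a pseudocount of 32 or with no intensity trend, and 10 and 11 with array weights. Over all 5415 tested genes the counts were 28 and 5 as reported, 121 and 7 after quantile normalization, and 8 for the difference with the pseudocount. Higher in the OE than in the jhd2 wild type were 20 as reported, 18 after quantile normalization and 19 after median centring. Over all tested genes these counts were 582, 387 and 436. Between the SET1 and OE wild types the counts were 15, 16 and 13 in these settings, and 439, 405 and 503 over all tested genes. Where no value for all tested genes stands beside a count, the count alone does not set the pathway apart from them. With the arrays of the compared experiments alone JHD2 OE had 10, where 17.6% of all tested genes were called, and the set1 deletion had 0. With the replicate number as a block the counts were 11 and 8, and for the second 10.0% of all tested genes were called. That block gave 2 in the set1 deletion (MET17 and MET10), 8 for the set1 deletion change minus the JHD2 OE change, and no other changed call count. With crossed pairing in the overexpression experiment, chosen after seeing the data, the counts were 11 and 8. In that fit 2 were called in the set1 deletion and 7 for the set1 deletion change minus the JHD2 OE change. The 3'/5' ratio as a covariate gave 2 in the set1 deletion and 1 between the SET1 and jhd2 wild types. Dropping replicate 3 of the jhd2 deletion and of its wild type, also chosen after seeing the data, gave 8 and 5. For JHD2 OE 12.9% of all tested genes were called in that fit. It also gave 2 for the set1 deletion minus JHD2 OE and 3 between the SET1 and jhd2 wild types. Without single arrays the counts were 0 to 3 for JHD2 OE, 0 to 2 for its difference from the jhd2 deletion, 0 to 1 between the SET1 and jhd2 wild types and 8 to 16 between the SET1 and OE wild types. Of 7075 alternative values of uncalled changes 248 turned sign, and 0 were called with the opposite sign. The causes of these shifts were not tested. Wild types of different experiments could not be compared with the block.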
